A study of Rattus norvegicus with 6 samples.

Results

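The genes described here set whether the liver makes glucose or uses it: the gluconeogenic enzymes G6pc1, Pck1, Fbp1 and Pc, the glycolytic enzyme Pklr, the bifunctional enzyme Pfkfb1, the glucose transporter Slc2a2 and the coactivator Ppargc1a. They were chosen as a list of 9 names that stand for 8 genes, since Pcx is the older symbol of Pc, and all 8 were found by their RefSeq accession among 7126 named genes in a table of 19345 rows. Each of the 8 had 1 row, so no choice between transcripts arose.

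All livers came from male Sprague-Dawley rats aged 90 to 120 days. Each rat had lost blood from an amputated tail, which models uncontrolled hemorrhagic shock, and each had received Ringer's solution, a balanced salt solution. In the limited group it was given to hold mean arterial pressure at 50 to 60 mmHg, and in the aggressive group to hold it over 80 mmHg, until tissue was taken at 330 min. Of 6 rats assigned to each regimen, the livers of 3 limited and 3 aggressive rats were hybridised to 1 array each. The unbled control animals of the study were not analysed here. Each value therefore sets one regimen against the other and gives no distance from an unbled liver. The labels do not give feeding state, blood glucose or hormone levels, or which lobe was sampled, and their protocol fields name both regimens for each rat.

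Gluconeogenesis rebuilds glucose from lactate, glycerol and amino acids. It runs most steps of glycolysis backwards and replaces the irreversible ones with enzymes of its own: Pc and Pck1 bypass pyruvate kinase, Fbp1 bypasses phosphofructokinase and G6pc1 releases free glucose at the last step. Glucagon and adrenaline through cyclic AMP, and glucocorticoids, raise transcription of G6pc1, Pck1 and Ppargc1a in liver, and insulin represses it, whereas glucose induces Pklr.

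The 3 genes of the list with an unadjusted p under 0.05 were G6pc1, Pck1 and Ppargc1a, and their promoter windows, 250 bases before to 50 after the start that RefSeq gives for the rat assembly GRCr8, are printed here because this text turns on them. Capitals mark the cyclic AMP response element TGACGTCA or its core TGACG, which reads CGTCA when it lies on the opposite strand, and the insulin response letters TGTTTTG, all searched on both strands with overlaps counted. Only exact letters were searched, so any variant of these elements stands in lower case.
G6pc1, chr10:86807409-86807708, plus strand: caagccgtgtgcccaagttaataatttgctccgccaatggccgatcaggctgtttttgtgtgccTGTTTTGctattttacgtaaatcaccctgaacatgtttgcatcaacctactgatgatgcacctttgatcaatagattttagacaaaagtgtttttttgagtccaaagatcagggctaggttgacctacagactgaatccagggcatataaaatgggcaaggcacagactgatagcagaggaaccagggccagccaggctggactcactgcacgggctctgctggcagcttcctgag
Pck1, chr3:182348322-182348621, plus strand: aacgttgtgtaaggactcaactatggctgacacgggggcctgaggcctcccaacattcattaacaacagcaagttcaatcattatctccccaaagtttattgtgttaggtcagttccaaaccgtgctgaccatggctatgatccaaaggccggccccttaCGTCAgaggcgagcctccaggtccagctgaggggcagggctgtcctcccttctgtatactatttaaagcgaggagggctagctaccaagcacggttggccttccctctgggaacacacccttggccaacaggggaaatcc
Ppargc1a, chr14:63634058-63634357, plus strand: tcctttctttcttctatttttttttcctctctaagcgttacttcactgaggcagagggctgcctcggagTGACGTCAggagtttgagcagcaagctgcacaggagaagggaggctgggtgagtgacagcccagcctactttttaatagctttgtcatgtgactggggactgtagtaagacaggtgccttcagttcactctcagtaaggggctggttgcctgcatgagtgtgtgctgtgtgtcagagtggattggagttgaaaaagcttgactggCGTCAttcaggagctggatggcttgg

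The G6pc1 window held TGTTTTG with its first base at -186 from the start site, letters found in 6.3% of 33469 rat promoter windows of the same length. The Pck1 window held the core at -90 on the opposite strand, and 21.2% of all windows hold that core. Ppargc1a held the full element at -181, found in 1.8% of windows, and a further core at 25 downstream of the start. Windows of Fbp1, Pklr, Pfkfb1 and Slc2a2 held none of these letters, the FOXO letters TGTTTAC and the E-box CACGTG were in none of the 7 member windows, and Pc was not in the sequence table. Genes such as Ppargc1a have several starts and only 1 is shown, and a match is a description of letters and not of binding. Elements that depart from the exact letters were not looked for, so a window without a match may still hold one.

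Among the 8 genes, the largest differences were those of G6pc1 and Ppargc1a, both lower in all limited arrays, at -1.06 and -1.09 on the log2 scale as limited minus aggressive. Pck1 and Pfkfb1 were also lower in all limited arrays, by smaller amounts, with -0.58 and -0.43. The arrays of Fbp1, Pc, Pklr and Slc2a2 overlapped between the groups. None of the 8 passed limma's test after Benjamini-Hochberg adjustment over all rows, at a threshold of 0.05.

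**Figure D1:**
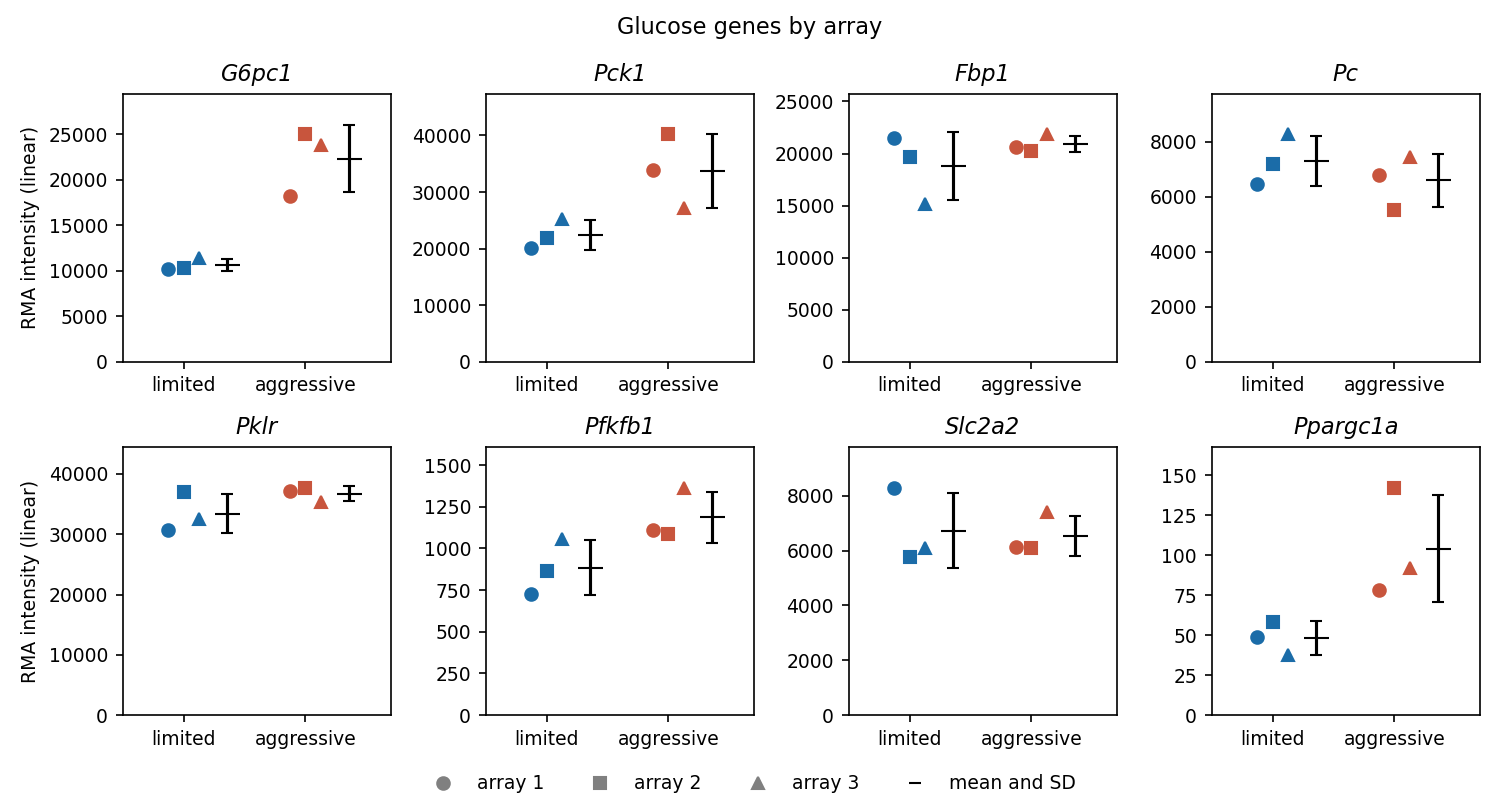
RMA intensity (linear scale, each panel from 0) of the 8 genes in the 3 limited (blue) and 3 aggressive (red) arrays, with marker shape for the array number and the mean and SD beside the points. The groups do not overlap in G6pc1, Pck1, Pfkfb1 and Ppargc1a, where all limited arrays are lower, and they overlap in the other 4 genes.

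G6pc1 encodes the catalytic subunit of glucose 6-phosphatase, which releases free glucose as the last step of both gluconeogenesis and glycogen breakdown. Its intensity was 10173, 10256 and 11385 in the limited arrays, against 18171, 24958 and 23813 in the aggressive arrays. The limited rats lay within 1.12-fold of each other and every one of them was below the lowest aggressive rat. The means were 10605 ± 677 under limited and 22314 ± 3634 under aggressive resuscitation (SD, n = 3 each). On the log2 scale, from which all fold changes between the regimens are taken, G6pc1 was 2.09-fold lower under limited resuscitation. The log2 difference of -1.06 (SE 0.20, 95% confidence interval -1.53 to -0.59) had an unadjusted p of 0.000977 and an adjusted p of 0.118 in limma. It ranked 159 of 19345 rows by p.

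Pck1, the cytosolic enzyme that turns oxaloacetate into phosphoenolpyruvate, had an intensity of 20159, 21844 and 25234 in the limited arrays, against 33948, 40171 and 27097 in the aggressive arrays. The groups did not overlap, but the highest limited and the lowest aggressive rat were close, and the aggressive rats spread 1.48-fold. The log2 difference was -0.58 (SE 0.217, 95% confidence interval -1.09 to -0.07), with an adjusted p of 0.337 in limma. Pck1 was among the bright rows, reaching 40171 where the highest value of the table was 57240. The sources used here give no saturation limit.

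Fbp1, which removes a phosphate from fructose 1,6-bisphosphate, had an intensity of 21536, 19633 and 15185 in the limited arrays, against 20643, 20280.0 and 21831 in the aggressive arrays. Limited array 3 was low and the other 5 arrays lay together. Its log2 difference of -0.17 had a 95% confidence interval of -0.64 to 0.30, and without limited array 3 it was -0.02.

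Pc, the mitochondrial pyruvate carboxylase that supplies oxaloacetate, had an intensity of 6455, 7198 and 8274 in the limited arrays, against 6813, 5542 and 7442 in the aggressive arrays. The arrays of the groups interleaved. Its log2 difference of 0.15 (95% confidence interval -0.33 to 0.63) was on the other side of 0 from G6pc1, Pck1 and Fbp1. The 4 gluconeogenic enzymes thus had log2 differences between -1.06 and 0.15.

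Pklr encodes the liver form of pyruvate kinase, the last step of glycolysis. Its intensity was 30681, 36965 and 32599 in the limited arrays, against 37186, 37719 and 35333 in the aggressive arrays. Limited array 2 lay among the aggressive arrays, and the log2 difference was -0.14 (95% confidence interval -0.55 to 0.27). Pklr was also a bright row.

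Pfkfb1, whose protein both makes and removes fructose 2,6-bisphosphate, the signal that favours glycolysis over gluconeogenesis, had an intensity of 729.7, 863 and 1059 in the limited arrays, against 1108, 1087 and 1365 in the aggressive arrays. The limited arrays were lower without overlap, by a margin smaller than the spread inside either group. Its log2 difference was -0.43 (SE 0.215, 95% confidence interval -0.94 to 0.07), with an unadjusted p of 0.0826 and an adjusted p of 0.447 in limma.

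Slc2a2, the glucose transporter GLUT2 of the hepatocyte membrane, had an intensity of 8290.2, 5772 and 6105 in the limited arrays, against 6121, 6084 and 7390 in the aggressive arrays. Limited array 1 was the highest of all 6 and the others interleaved. The log2 difference was 0.03 (95% confidence interval -0.48 to 0.53), a sign that turned under 4 of 15 alternative settings, among them arrays centred on their median.

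Ppargc1a, the coactivator PGC-1alpha that drives gluconeogenic and mitochondrial genes in fasted liver, had an intensity of 48.7, 58.5 and 37.6 in the limited arrays, against 78.5, 142 and 91.8 in the aggressive arrays. No array of one group reached the other. The log2 difference of -1.09 (SE 0.287, 95% confidence interval -1.76 to -0.41) had an unadjusted p of 0.00639 and an adjusted p of 0.209 in limma. All 6 values were below the median row of the table (mean intensity 234), and the sources used here give no signal over background. With 64 added to each intensity before log2, the difference was -0.57.

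Counted over the 8 genes, 3 had an unadjusted p under 0.05, all lower under limited resuscitation, where 6.19% of all rows did so in that direction. In 4 genes the limited arrays lay wholly below the aggressive arrays, against 9.76% of all rows. After adjustment 0 of 8 passed in limma, against 0.114% of all rows in either direction. Both unadjusted shares of the 8 were above those of all rows, but the list was drawn up with earlier results of these data known, so the counts are no independent evidence. The median log2 difference was -0.30 over the 8 genes and 0.01 over all rows. With 3 against 3 arrays the exact two-sided permutation test of a single gene cannot go below 0.1, which G6pc1, Pck1, Pfkfb1 and Ppargc1a each reached.

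**Figure D2:**
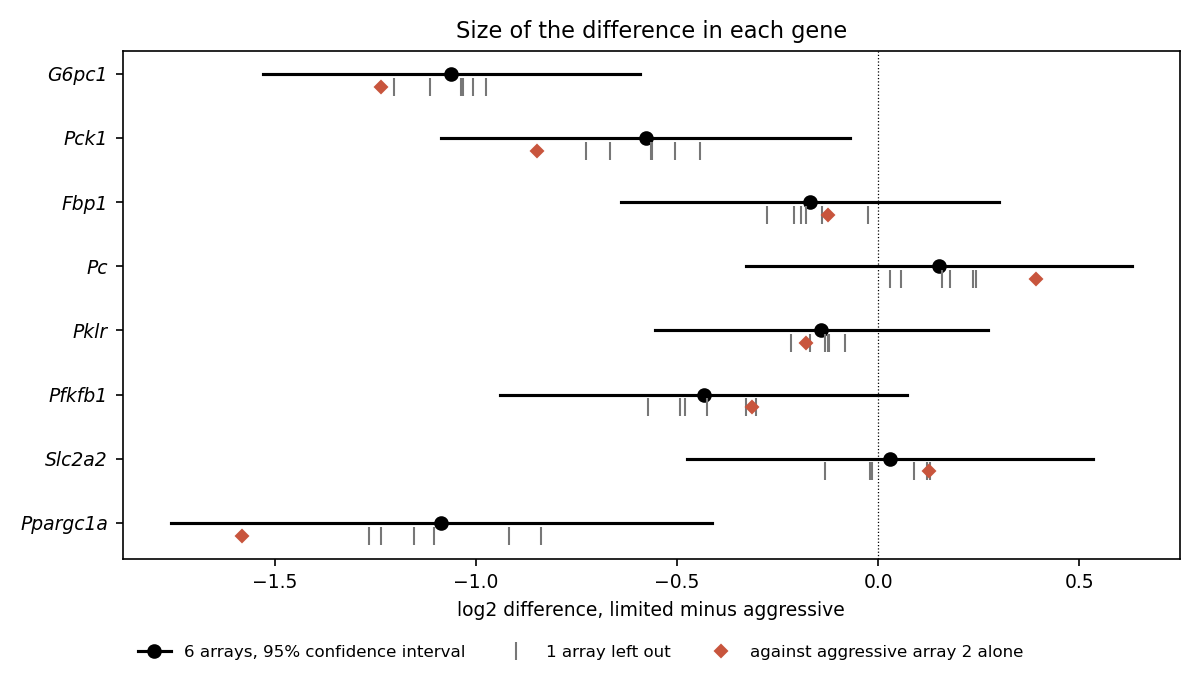
Log2 difference, limited minus aggressive, of the 8 genes (black points) with 95% confidence intervals, the values with 1 array left out (grey ticks) and against aggressive array 2 alone (red diamonds). G6pc1 stays between -1.20 and -0.97 with any 1 array left out, Ppargc1a between -1.27 and -0.84 and Pck1 between -0.73 and -0.44.

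The calls depended on how the variance was modelled. limma shrinks each row's spread towards a value shared by all rows, here an SD of 0.301 on the log2 scale, while G6pc1's own SD was 0.186. An alternative changed the prior in 2 ways at once, letting it follow intensity and fitting it robustly against outlying rows. The prior SD was then 0.174 for a row as bright as G6pc1, and the prior degrees of freedom, which set how strongly rows are shrunk, were 23.8 for these genes in place of 3.26. Under that prior the adjusted p in limma was 2.36e-05 for G6pc1 and 0.0210 for Pck1, and both then passed. For the dim Ppargc1a the prior SD was 0.549, and its adjusted p was 0.195 there. The parts of the 2 changes were not separated.

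Lung transcripts were present in aggressive arrays 1 and 3. All 8 lung markers were measured, none at 0, and their summed intensity lay between 276 and 366 in the limited arrays, against 247 and 4994 as the lowest and highest aggressive arrays, of which array 2 was the lowest. Against aggressive array 2 alone, the log2 difference was -1.24 for G6pc1, -0.85 for Pck1, -0.31 for Pfkfb1 and -1.58 for Ppargc1a. These values rest on 1 aggressive rat, which was the highest of the 3 in G6pc1, Pck1 and Ppargc1a, so larger differences in these genes were fixed by that choice of array. In Pfkfb1, where it was not the highest, the difference was smaller than the -0.43 over all arrays. The part of lung transcripts in the results was not tested.

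The 8 hepatocyte markers were all measured, with a summed intensity between 302000 and 312300 under limited and between 313900 and 343800 under aggressive resuscitation. These sums did not overlap, and 0 of 8 passed in limma or had an unadjusted p under 0.05, where 13.1% of all rows had such a p. These markers were bright rows, with Alb reaching 54838 where the highest value of the table was 57240, and no saturation limit is given. Of 8 macrophage markers 7 were measured, at a sum of 37760.0 to 43040.0 under limited and 23950.0 to 29100.0 under aggressive resuscitation. Among them 0 passed in limma and 5 had an unadjusted p under 0.05, all higher under limited resuscitation, where 6.86% of all rows were so. The same 5 did not overlap between the groups, whereas Cd68 and Vsig4 did. The part of these markers in the differences of the glucose genes was not tested. In whole liver, fewer cells of a type and less RNA per cell cannot be told apart. G6pc1 and Pck1 are highest in hepatocytes near the portal vein. Of 6 periportal markers, Sds passed and was lower under limited resuscitation, and the other 5, Hal, Gls2, Ass1, Asl and Cps1, had log2 differences between -0.16 and 0.27. The 6 pericentral markers lay between -0.05 and 0.50. Kidney and small intestine also make glucose, and of 5 markers for each only 2 were measured here.

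Where gluconeogenesis and glycolysis run different enzymes at the same step, the ratio of the pair was taken within each array. Only differences of a ratio between groups carry meaning, since the rows differ in probe response. At the fructose step the ratio of Fbp1 to Pfkl, the liver phosphofructokinase, had a log2 difference of -0.54 and the groups overlapped. Pfkl had an intensity of 3723, 4352 and 4697 in the limited arrays, against 3632, 2878 and 3377 in the aggressive arrays. It was higher in every limited array, with a log2 difference of 0.37 and an adjusted p of 0.473 in limma. At the pyruvate step the ratio to Pklr differed by -0.44 for Pck1 and by 0.29 for Pc, both with overlap.

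Slc37a4, the transporter that brings glucose 6-phosphate to the phosphatase, had an intensity of 6213, 8004 and 8152 in the limited arrays, against 5717, 5811 and 6763 in the aggressive arrays. The groups overlapped, and the log2 difference of 0.28 was opposite in sign to that of G6pc1. The log2 ratio of G6pc1 to Slc37a4 differed by -1.345 without overlap. Whether the steps differ from each other was not tested.

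**Figure D3:**
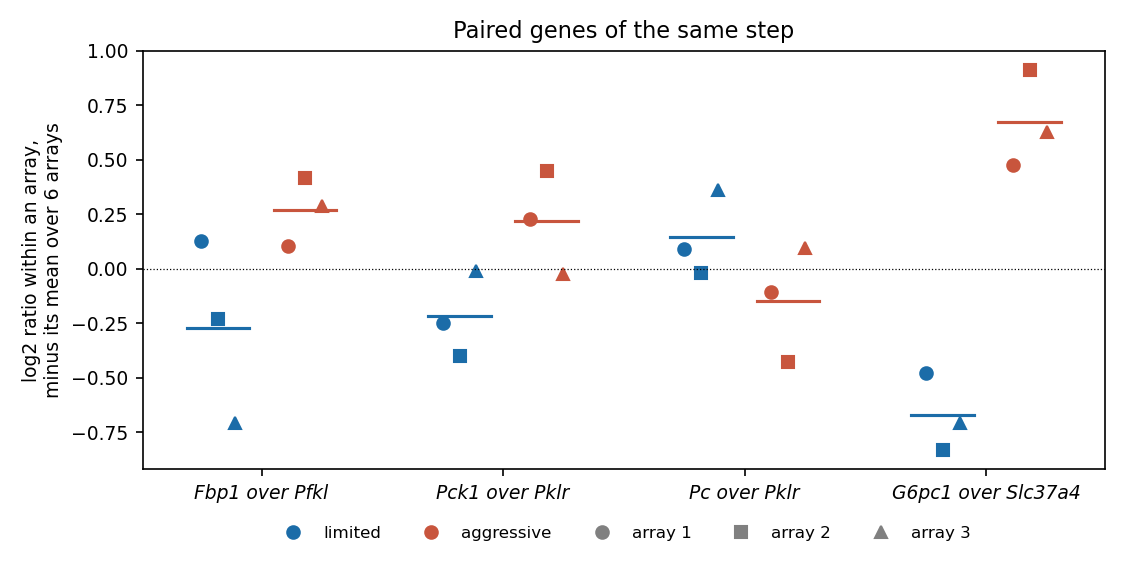
Log2 ratio within each array of paired genes, minus its mean over the 6 arrays, for limited (blue) and aggressive (red) arrays, with lines at group means and marker shape for the array number. The first 3 pairs set an enzyme of gluconeogenesis over an enzyme of glycolysis and overlap between the groups, and the ratio of G6pc1 to its transporter Slc37a4 does not overlap, with a difference of -1.345.

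Genes around the 8 were read from lists by role, 106 genes in all, of which 91 were measured. Their median log2 difference was -0.06, with 52 below and 39 above 0, against a median of 0.01 over all rows. Among 7 measured genes of the gluconeogenic list the median was 0.08. That is the value of Fbp2, a dim row with intensities between 26.0 and 107 in the limited arrays. In limma 0 of the 7 passed and 2, G6pc1 and Pck1, had an unadjusted p under 0.05. That level was reached by 13.1% of all rows in either direction. The low values of G6pc1 and Pck1 under limited resuscitation were not matched by the other 5 measured genes of that list. They lay between -0.17 and 0.28, and the 0.28 is that of the transporter Slc37a4. G6pc3, the widely expressed relative of G6pc1, had a log2 difference of 0.10.

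Of 19 glycolytic genes, 0 passed in limma and 0 had an unadjusted p under 0.05. For all rows these shares were 0.114% and 13.1%, in either direction. The median of the list was -0.0017. Beside Pfkl, the smallest p values were those of Ldha and Hk1. Ldha, which interconverts lactate and pyruvate, had a log2 difference of 0.28 without overlap and an adjusted p of 0.600, and Hk1, a hexokinase of most tissues, differed by -0.27 with overlap. In the family of Pfkfb1, Pfkfb3 differed by -0.37 and Pfkfb4 by 0.34, and 0 of 4 passed or had an unadjusted p under 0.05. Beside 13.1% of all rows with such a p, a count of 0 among 4 genes says little.

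Of 6 measured transporters 0 passed in limma and 2 had an unadjusted p under 0.05, both lower under limited resuscitation. Over all rows 6.19% had such a p and were lower. Slc16a1, the lactate and pyruvate carrier MCT1, had an intensity of 5653, 5054 and 4498 in the limited arrays, against 7865, 7342 and 9333 in the aggressive arrays. The groups did not overlap (log2 difference -0.69, adjusted p = 0.224 in limma). Slc2a1, the widely expressed glucose transporter GLUT1, had 3625, 5189 and 4979 in the limited arrays, against 6753, 9047 and 5993 in the aggressive arrays. It too did not overlap, with a log2 difference of -0.66, whereas Slc2a8 differed by 0.51 with overlap.

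In glycogen metabolism 0 of 10 measured genes passed in limma and 3 had an unadjusted p under 0.05, with differences on both sides of 0. Such a p was reached by 13.1% of all rows in either direction. Ppp1r3c, which targets protein phosphatase 1 to glycogen and favours its synthesis, had an intensity of 350.5, 644 and 343 in the limited arrays, against 127, 138 and 178 in the aggressive arrays, 2.92-fold higher under limited resuscitation (adjusted p = 0.121 in limma). Pgm1, phosphoglucomutase, which links glycogen to glucose 6-phosphate, had 8699.7, 9636 and 8118 in the limited arrays, against 14534, 14516 and 18233 in the aggressive arrays. It was 1.78-fold lower under limited resuscitation without overlap (adjusted p = 0.171). Phkb, a phosphorylase kinase subunit, differed by 0.65 with overlap.

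Of 15 measured genes that supply or divert carbon for the pathway, transaminases and dehydrogenases among them, 2 passed, both lower under limited resuscitation. They were Sds, serine dehydratase, with a log2 difference of -1.66, and Tat, tyrosine aminotransferase, with -1.48, each with an adjusted p of 0.0482 in limma. Over all rows 0.114% passed, in either direction. The median of the list was -0.25. In all, 6 of the 15 had an unadjusted p under 0.05, of which 2 were higher and 4 lower under limited resuscitation, where 6.86% and 6.19% of all rows were so. The 2 higher were Gpt2, a mitochondrial alanine aminotransferase, with a log2 difference of 0.70 (adjusted p = 0.209), and Pdk2, a kinase that inhibits pyruvate dehydrogenase, with 0.84 (adjusted p = 0.242), both without overlap. Beside Sds and Tat, the lower were Got1, at -0.92 (adjusted p = 0.172 in limma), and Mdh1, at -0.45 (adjusted p = 0.372), both without overlap. The calls of Sds and Tat ended with any 1 array left out and with the replicate number as a block. That of Tat also ended with a second quantile normalization and with arrays centred on their median.

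Of 17 measured transcription factors and coactivators 0 passed in limma and 6 had an unadjusted p under 0.05, with 3 on each side. Among all rows 6.86% had such a p and were higher under limited resuscitation, and 6.19% were lower. Crem, whose inducible form ICER follows cyclic AMP signalling, had an intensity of 2245, 1871 and 2049 in the limited arrays, against 4585, 4065 and 4317 in the aggressive arrays, and was 2.11-fold lower under limited resuscitation. Cebpa, a hepatocyte factor that also acts on the Pck1 and G6pc1 promoters, was on the other side, at 4437, 5792 and 4079 in the limited arrays, against 1531, 1097 and 1901 in the aggressive arrays. Its log2 difference was 1.68. The adjusted p was 0.0901 for Crem and 0.0829 for Cebpa in limma.

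In insulin and glucagon signalling 0 of 13 measured genes passed in limma, and 6 had an unadjusted p under 0.05, of which 2 were higher and 4 lower. Of all rows 6.86% had such a p and were higher, and 6.19% were lower. Igfbp1, a hepatocyte secretory protein whose gene is repressed by insulin as G6pc1 and Pck1 are, had an intensity of 14909, 13904 and 14638 in the limited arrays, against 36755, 40055 and 27186 in the aggressive arrays. It was 2.36-fold lower under limited resuscitation without overlap (adjusted p = 0.0912). Gcgr, the glucagon receptor, was 1.71-fold higher (adjusted p = 0.189) and Adra1b, an adrenergic receptor of hepatocytes, 2.70-fold higher (adjusted p = 0.101).

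With the robust prior that follows intensity, 2.95% of all rows passed, and so did more of the genes named by role. Crem, Igfbp1, Pgm1, Slc16a1, Slc2a1 and Got1 then passed as lower under limited resuscitation, beside Sds, Tat, G6pc1 and Pck1. Cebpa, Adra1b, Gcgr, Ppp1r3c, Gpt2 and Pdk2 then passed as higher. Phkb did not pass under either prior. Against aggressive array 2 alone, which is 1 rat, the median log2 difference over the 7 genes of the gluconeogenic list was 0.06. That rat was the highest aggressive one in both G6pc1 and Pck1.

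**Figure D4:**
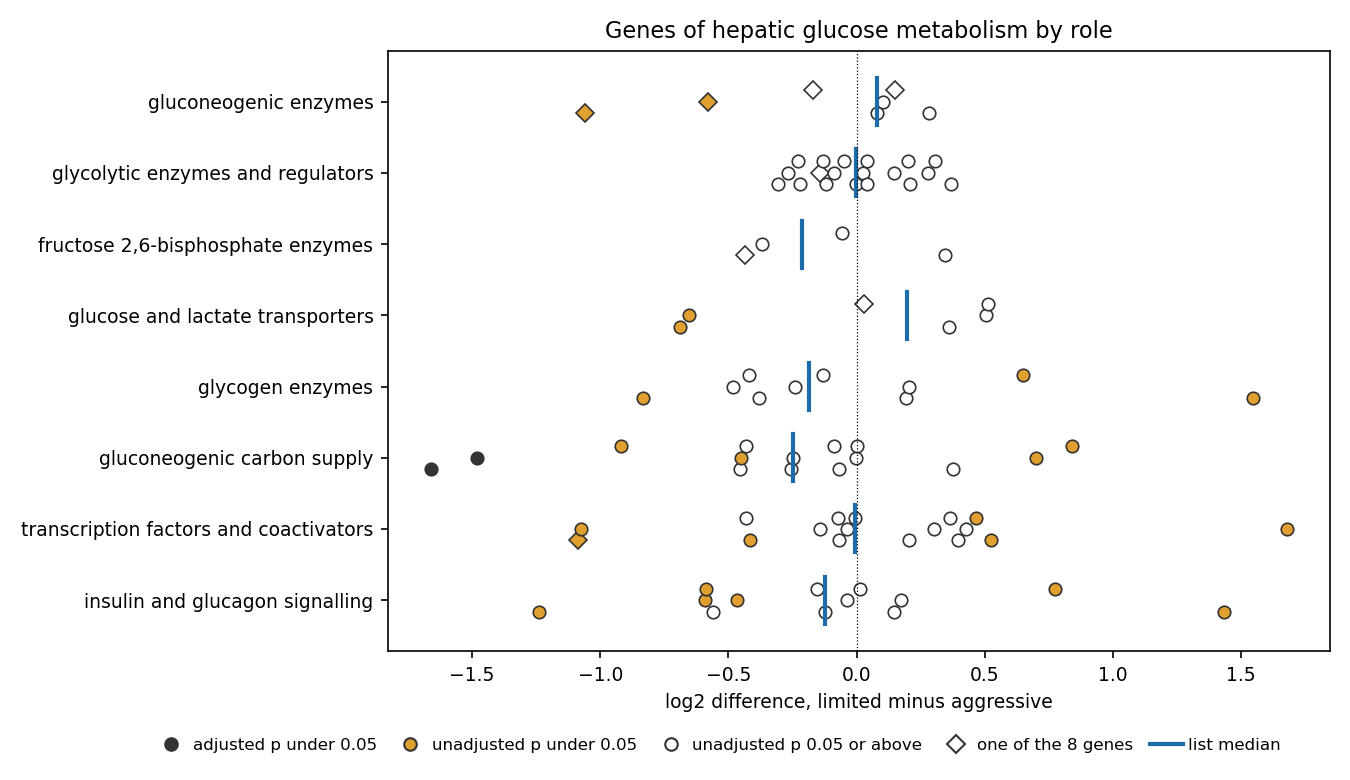
Log2 difference, limited minus aggressive, of the 91 measured genes of hepatic glucose metabolism by role, with diamonds for the 8 genes, fill for the test result and a blue line at each list's median. Only Sds and Tat passed the adjusted test, and most medians lie near 0, between -0.25 and 0.20.

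Likeness to a member was measured as the root mean square difference over the 6 arrays between log2 values centred on each gene's own mean, among 4438 other named genes with a mean above the median row (4439 for Ppargc1a). The nearest to G6pc1 were Got1, the cytosolic aspartate aminotransferase (0.142 log2 units), Insig1, a brake on sterol synthesis (0.143), and Usp18, an interferon-induced protease (0.150). G6pc1 itself departs from its mean by 0.552 on this scale. Got1 had an intensity of 5802, 6103 and 7339 in the limited arrays, against 10685, 14755 and 11137 in the aggressive arrays, highest in aggressive array 2 as G6pc1 was.

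Nearest to Pck1 were Bnip3, a hypoxia-inducible mitophagy receptor (0.0705), Phaf1 (0.0807) and Ppp1r15a, a stress-induced regulator of eIF2alpha phosphorylation (0.0852). Bnip3 had 3369, 3872 and 3898 in the limited arrays, against 5507, 6190.0 and 4531 in the aggressive arrays, the same order of arrays as Pck1 in the aggressive group. Pklr, which varied little, was nearest to Cox15, a heme A synthesis enzyme (0.0350), Timd2 (0.0447) and Psmb4, a proteasome subunit (0.0459). Ppargc1a was nearest to Fbxo32, the ubiquitin ligase atrogin-1 (0.217), Usp18 (0.246) and Prkaa1, a catalytic subunit of AMP-activated kinase (0.253). These distances describe 6 arrays and carry no test.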

How the data were processed

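RNA from livers of 3 limited and 3 aggressive rats was measured on 1-colour Cy3 NimbleGen arrays. The authors deposited 1 linear intensity per RefSeq transcript and array, made with RMA per the submitters' processing notes. The sources used here give no RMA version, scanner, array build or filter. Array medians were 226 to 243 (limited) and 212 to 245 (aggressive). The number of arrays limits the precision.

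Groups came from the sample titles. Unversioned accessions were matched to symbols in a RefSeq table of GRCr8, naming 7223 of 19345 rows. For each gene the row with the highest mean was used. log2 of the deposited intensity was fitted with limma 3.58.1 (R 4.3.3; lmFit, eBayes, two-sided, limited minus aggressive), with Benjamini-Hochberg adjustment over all rows. Simulated data with 19345 rows gave 5 of 100 calls at 2-fold and 70 of 100 at 4-fold. The spread of each simulated row was drawn from the prior shared by all rows and did not follow intensity. These rates therefore do not describe bright rows such as G6pc1 or dim rows such as Ppargc1a on their own.

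The members, the lists and the alternatives were chosen with earlier results of these data known. Named genes are the members, comparison partners, markers, and the list genes that passed or else the 3 with the smallest p. The 3 nearest in pattern to G6pc1, Pck1, Pklr and Ppargc1a were also named, and Got1 came from these. G6pc3, Fbp2, Gpt2, Pdk2 and Mdh1 were named outside the rule, and Gpt2, Pdk2 and Mdh1 after their values were seen. Fbp2 was named as the gene at its list's median. Replicate numbers did not pair the arrays: same-numbered deviations correlated at -0.0572, -0.0517 and 0.0504. 1 gene of the glycolytic list is not reported here.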

Additional observations from a re-analysis of the deposited data

How the results depend on the processing

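Of all 19345 rows 22 passed. The count became 469 of the 9673 rows kept when dim rows were dropped, 570 under a robust, intensity-dependent prior and 281 with 64 added before log2. It became 0 with the replicate number as a block and 0 to 2 with any 1 array left out. Of the 8 genes 0 passed. Without dim rows, where 7 of the 8 were left, 1 passed (G6pc1, adjusted p = 0.00336 in limma). With that robust, intensity-dependent prior 2 passed (G6pc1 and Pck1), and with 64 added 1 passed (G6pc1, adjusted p = 0.00969 in limma). The count stayed 0 with any 1 array left out. With the replicate block the log2 difference of G6pc1 was -1.06 (adjusted p = 0.296 in limma), and no member passed; the numbers did not pair the arrays.

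G6pc1, Pck1, Fbp1, Pc, Pklr and Pfkfb1 kept their sign under all 15 alternatives run and Ppargc1a under all 14, since it was itself left out with the dim rows. Slc2a2 turned to -0.0064 with centred arrays, -0.13 without limited array 1, -0.02 without aggressive array 1 (-0.0151) and -0.02 without aggressive array 2 (-0.0195); the cause was not tested, and over the 6 arrays left out in turn it lay between -0.1319 and 0.1293.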
